A study of Mus musculus with 9 samples.

Results

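The 59 genes described here drive, restrain or mark progress through the cell division cycle. They were taken as a list of names; the rule applies no measured value, but the list was drawn up with earlier results of these data known. All 59 had a ratio in both deposited tables, which share 18182 genes. By role, 14 members were grouped as G1, 21 as DNA replication and 24 as G2 and mitosis. The G1 group holds D-type and E-type cyclins, their kinases, the retinoblastoma family and E2F factors. It thus mixes genes that promote the cycle with repressors (Rb1, Rbl1, E2f7 and E2f8). The tables named 23 of them directly, and 36 were matched through their NCBI or Ensembl gene ID.

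RNA was sequenced from 3 groups of cultured mouse brain astrocytes, with 3 libraries in each. One group had been transfected with a puromycin-resistance pcDNA vector for HA-tagged JICD1, the cytoplasmic fragment of Jagged1, a ligand of Notch receptors. The second had the same kind of vector for NICD, the cytoplasmic fragment of Notch1 (labelled NICD1), which enters the nucleus and turns on Notch target genes. The control group had the pcDNA puro vector without an insert. All 3 groups were Ink4a-/-, so the controls also lack Ink4a, a product of the Cdkn2a locus that inhibits the cyclin D kinases Cdk4 and Cdk6, and all were grown in medium with serum. Whether the libraries came from separate cultures, and whether transfected cells had been selected, was not given in the sources used here. Each table holds 1 log2 ratio of a transfected group over control per gene and 1 score between 0 and 1 that its header calls Probability. With no value per library, no ratio below has a replicate error, an interval or a test, and higher and lower give only the sign of a ratio. In RNA from whole cultures, fewer dividing cells and less transcript per dividing cell cannot be told apart.

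The cell cycle is entered when mitogen signals raise D-type cyclins, which bind Cdk4 and Cdk6 and phosphorylate the retinoblastoma protein. This frees E2F factors to switch on the genes of DNA replication, among them the MCM helicase, the clamp PCNA and the enzymes that make deoxynucleotides. A later wave, driven by Foxm1 and B-Myb, supplies the kinases, kinesins and kinetochore proteins of mitosis. Cdk inhibitors such as p21 (Cdkn1a), p15 (Cdkn2b) and p16 (Cdkn2a) hold these steps back. Many of the replication and mitotic genes are expressed mainly in dividing cells and serve as markers of proliferation.

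No member differed by as much as 2-fold against control with either construct. In the libraries labelled JICD1, 0 of 59 members had a log2 ratio of 1 or more in either direction, where 14.5% of all 18971 genes in that table were higher and 14.4% lower by that much. With NICD1 the count was also 0 of 59, where 16.6% of 19287 genes were higher and 12.1% lower. A score of 0.8 or more is the call used here; it is not a significance level. By that call 0 of 59 members were called with JICD1, against a background of 1.07% called higher and 1.74% called lower. With NICD1 0 of 59 were called, against 1.64% higher and 0.97% lower.

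The counts of 0 by ratio and by score are one observation. The smallest absolute log2 ratio among genes scored 0.8 or more was 1.00 for JICD1 and 0.98 for NICD1, so members with smaller ratios than these lay outside the reach of the call. For their small ratios, most members had high scores. Set among the 300 genes nearest in absolute ratio, the median member had a score above 85.3% of them in the JICD1 table and also 85.3% in the NICD1 table. By subset, the shares were 69.2% and 69.7% for G1, 85.3% and 84% for replication and 90.5% and 86.5% for mitotic members, JICD1 first. By contrast, the 5485 genes with an absolute log2 ratio of 1 or more in the JICD1 table had a median score of 0.32. For the 5536 such genes in the NICD1 table it was 0.33. All genes may thus be an unlike background, so the counts of 0 are not read as unusual stability of the members. The same holds for the narrow range given below. The making of the score was not given in the sources used here.

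**Figure D1:**
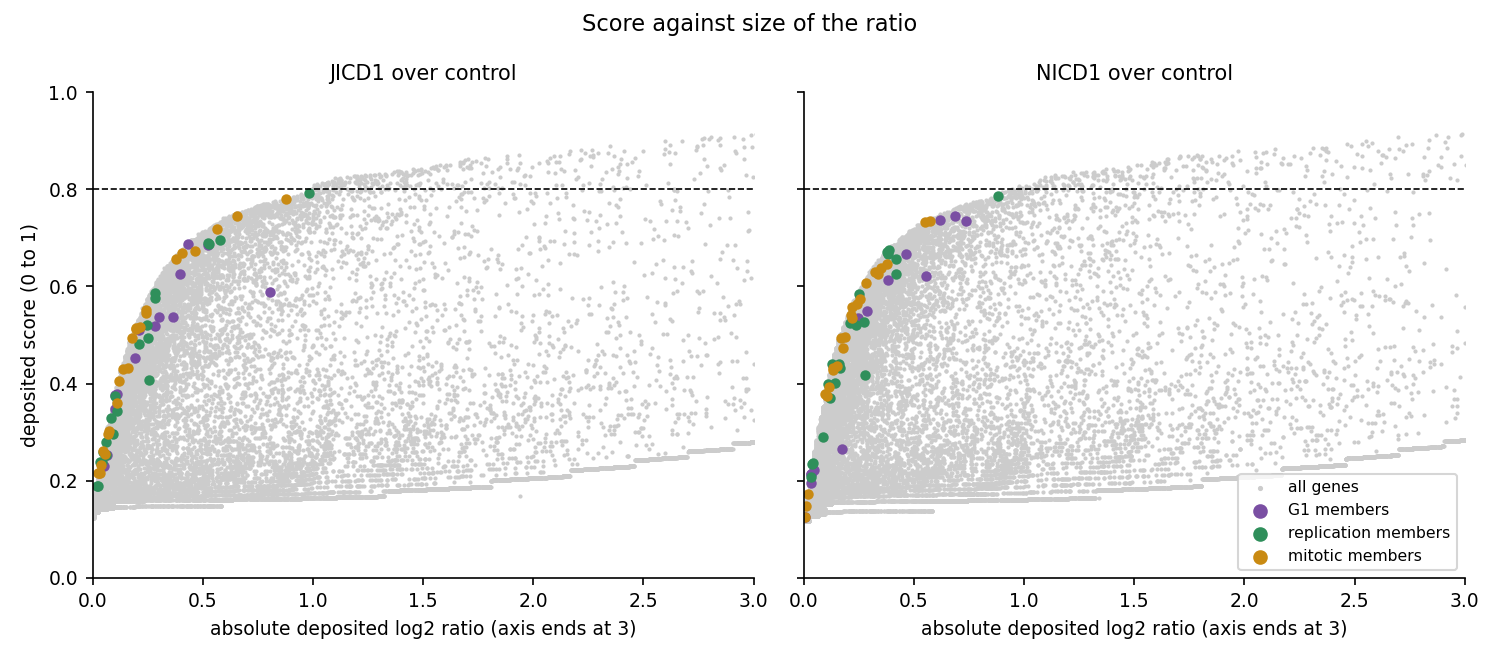
Deposited score against absolute log2 ratio for JICD1 over control (left) and NICD1 over control (right); grey points are all genes, coloured points the 14 G1, 21 replication and 24 mitotic members, and the dashed line a score of 0.8. Most members lie in the upper part of the grey cloud, and all fall below the line.

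The ratios were closely grouped around 0. The middle of the members' distribution was narrow: their interquartile range was 0.30 on the log2 scale with JICD1 and 0.28 with NICD1, against 0.93 and 0.89 over all genes of those tables. The median of the 59 log2 ratios was 0.10 with JICD1, where the median of all genes was 0.045, and 43 members lay above 0 and 16 below. With NICD1 the median was -0.15, where that of all genes was -0.016, and 13 members lay above 0 and 46 below. Over all genes, 54.5% of the JICD1 ratios and 48.5% of the NICD1 ratios were above 0.

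Both tables share the control group, so the JICD1 and NICD1 ratios were also subtracted from each other, which removes it. The resulting JICD1 minus NICD1 difference had a median of 0.31 over the 59 members and 0.040 over the 18182 genes of both tables. It was above 0 for 49 members and below 0 for 10, where 52.5% of all genes were above 0. Only Ccna2 (1.10) and Cenpe (1.01) differed by a log2 of 1 or more, both higher with JICD1 than with NICD1; the background was 10.6% higher and 13.6% lower. After the median of all genes was subtracted, 1 member was left, since Cenpe then lay below 1. At 1.5-fold or more, 10 members were higher and 0 lower, where 19.3% and 20.6% of all genes were.

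**Figure D2:**
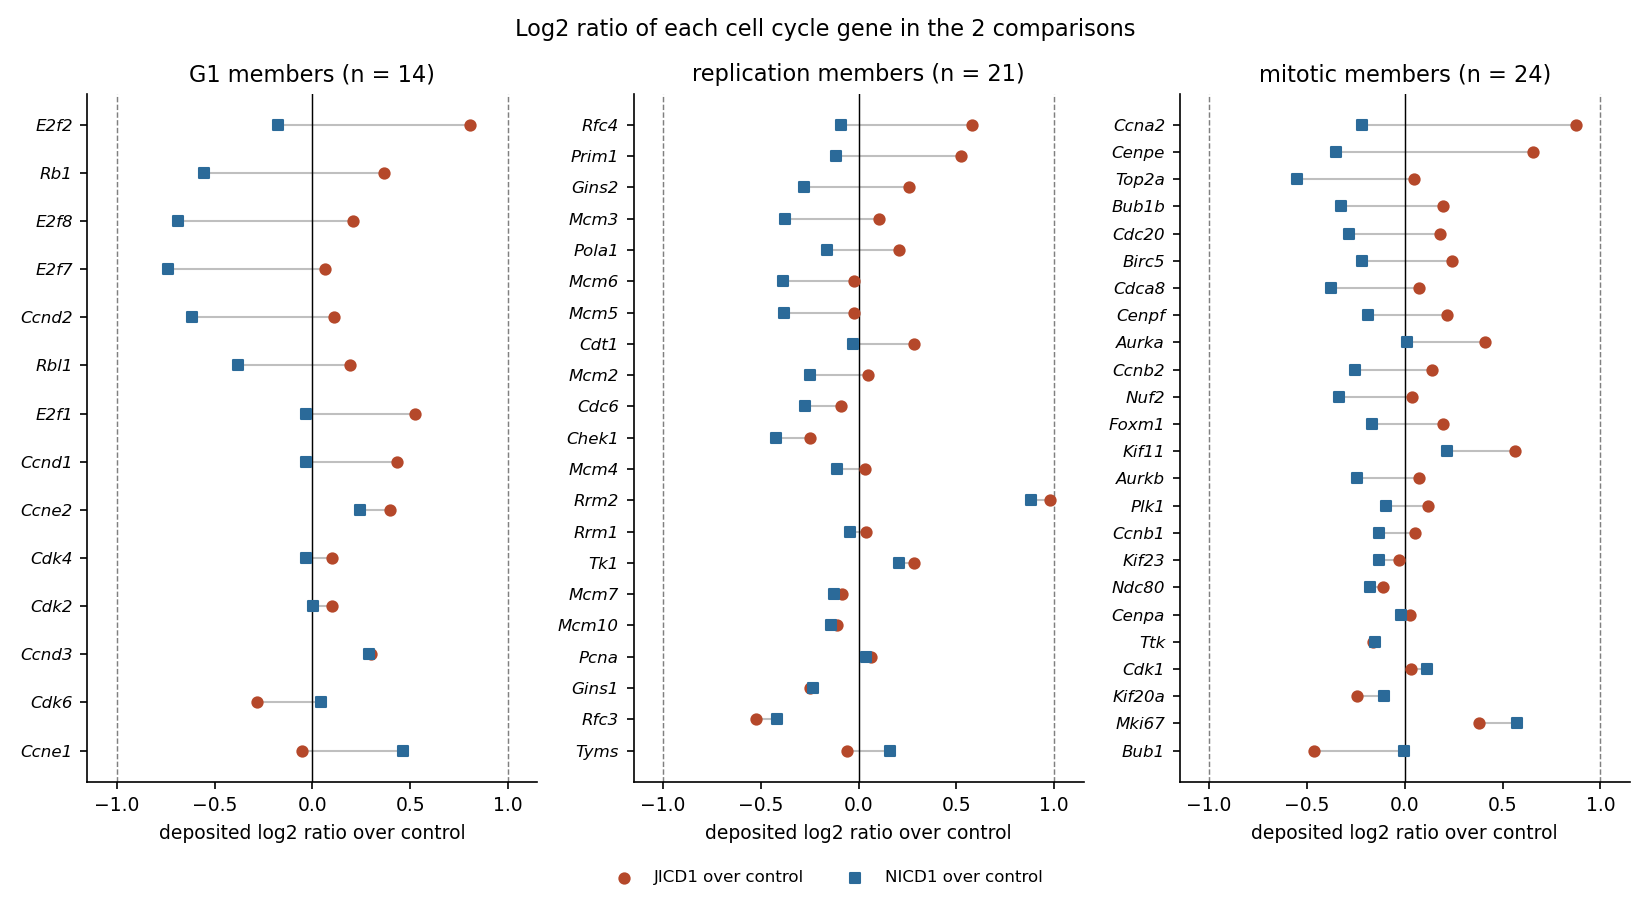
Deposited log2 ratio over control for each of the 59 members, for JICD1 (circles) and NICD1 (squares), in panels for the 14 G1, 21 replication and 24 mitotic genes; genes are ordered within a panel by the JICD1 minus NICD1 difference, and dashed lines mark log2 ratios of -1 and 1. All points lie inside the dashed lines, and in 49 genes the circle lies to the right of the square.

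The outermost members stood out in different ways. Rrm2, which encodes the regulated subunit of ribonucleotide reductase, had the highest ratio of all 59 with both constructs. In the authors' deposited tables it stood at a log2 ratio of 0.98 (1.97-fold higher, score 0.792) with JICD1 and 0.88 (1.84-fold higher, score 0.785) with NICD1. Its constant partner Rrm1 stood at 0.041 and -0.043 in the authors' deposited tables, in the order JICD1 and NICD1, so the subunits of the enzyme had unlike ratios. Ccna2, the cyclin A of S phase and mitotic entry, came next with JICD1, at 0.88 (1.84-fold higher, score 0.779) in the authors' deposited table. With NICD1 the same gene stood at -0.22 (1.16-fold lower, score 0.558) in the authors' deposited table.

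Lowering the score threshold to 0.7 shows which members came closest to a call. With JICD1, 4 members reached it, all higher: Rrm2, Ccna2, the kinetochore motor gene Cenpe and the spindle motor gene Kif11. The background at 0.7 was 4.18% higher and 4.43% lower, and no more is read from a count of 4 of 59 beside it. With NICD1, Rrm2 and the proliferation marker gene Mki67 were higher and E2f7, E2f8, Ccnd2 and Top2a lower at that threshold, 2 and 4 of 59, where the background was 4.44% and 3.38%. At 1.5-fold, Rrm2, Ccna2, E2f2 and Cenpe were higher with JICD1 and none lower, against 22.6% and 21.0% of all genes. With NICD1, Rrm2 was higher and E2f7, E2f8 and Ccnd2 lower at 1.5-fold, against 23.4% and 18.5% of all genes.

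Of the 3 subsets, the G1 members had the highest JICD1 median and, with NICD1, the widest interquartile range (0.55). Their median log2 ratio was 0.20 with JICD1, with 12 of 14 above 0, and -0.034 with NICD1, with 5 of 14 above 0. The replication members had medians of 0.041 with JICD1 (12 of 21 above 0) and -0.14 with NICD1 (4 of 21). The mitotic members had medians of 0.096 with JICD1 (19 of 24 above 0) and -0.17 with NICD1 (4 of 24). The JICD1 minus NICD1 median was 0.51 for G1, 0.17 for replication and 0.36 for mitotic members. Within G1 it was 0.15 for the D-type and E-type cyclins and 0.096 for their kinases. It was 0.75 for Rb1 and Rbl1, 0.77 for E2f1 and E2f2 and 0.85 for E2f7 and E2f8. The G1 median is therefore not a measure of genes that promote G1 alone. When the median of all genes was subtracted, the replication median with JICD1 changed sign, to -0.0048, so it gives no direction. The G1 median with NICD1 gives none either, since it was 0.13 over the 4 of 14 G1 members that the Symbol column names. Over the members so named, the JICD1 minus NICD1 medians were 0.12 for G1 (4 genes), 0.30 for replication (8) and 0.21 for mitotic members (11), so the order of the subsets depends on which members are counted. The difference between subsets has no test, since members are not replicates of a condition.

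**Figure D3:**
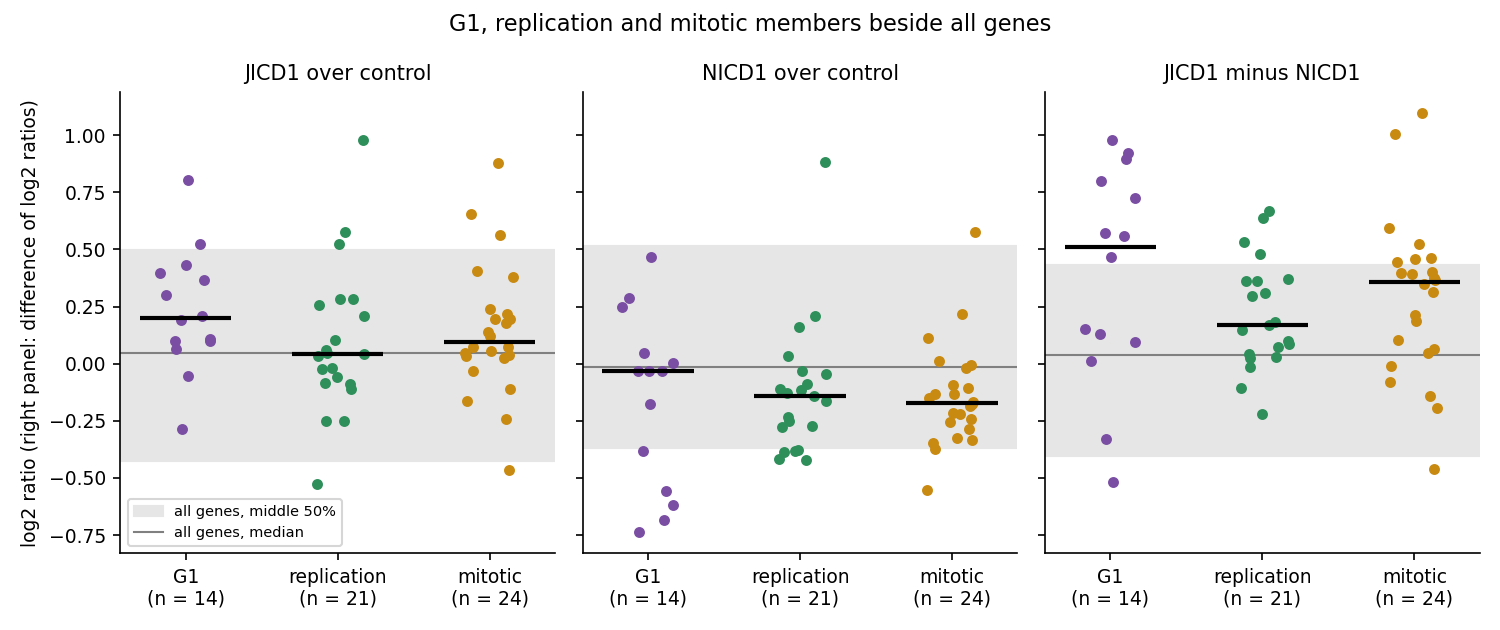
Log2 ratios of the G1 (n = 14), replication (n = 21) and mitotic (n = 24) members for JICD1 over control, NICD1 over control and the JICD1 minus NICD1 difference; each point is 1 gene, spread sideways for legibility, black bars are subset medians, the grey line is the median and the grey band the middle 50% of all genes. Subset medians lie between -0.17 and 0.20 in the first and second panels, and reach 0.51 for G1 in the third.

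Among the D-type cyclins, which link growth signals to Cdk4 and Cdk6, no gene had a large ratio. Ccnd1 stood at 0.43 (score 0.687) with JICD1 and -0.034 (score 0.214) with NICD1 in the authors' deposited tables. Ccnd2 stood at 0.11 with JICD1 and at -0.62 (1.53-fold lower, score 0.737) with NICD1 in the authors' deposited tables. Ccnd3 stood at 0.30 and 0.29 in the authors' deposited tables, in the order JICD1 and NICD1, so it hardly differed between the constructs. Of the kinase genes, Cdk4 and Cdk2 were close to control with both constructs. Cdk4 stood at 0.10 and -0.031 and Cdk2 at 0.10 and 0.0043, again JICD1 first, in the authors' deposited tables. Cdk6 was at -0.28 with JICD1 and 0.046 with NICD1 in the authors' deposited tables, a JICD1 minus NICD1 difference of -0.33.

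The E-type cyclins, which activate Cdk2 at the start of S phase, had unlike ratios. Ccne1 stood at -0.053 with JICD1 and 0.47 (1.38-fold higher, score 0.667) with NICD1 in the authors' deposited tables. Its JICD1 minus NICD1 difference of -0.52 was the lowest of all 59 members. Ccne2 stood at 0.40 with JICD1 and 0.25 with NICD1 in the authors' deposited tables.

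Among the 59 members, the retinoblastoma family and E2F genes stood near the upper end of the JICD1 minus NICD1 order. Of their relatives outside the list, E2f5 (0.56), Rbl2 (0.49), E2f4 (0.36) and E2f3 (0.22) had differences above 0. That of E2f6 (-0.16) lay below 0. Rb1, the founding pocket protein that restrains E2F, stood at 0.37 with JICD1 and -0.56 (1.47-fold lower, score 0.620) with NICD1 in the authors' deposited tables, a difference of 0.92. Its relative Rbl1 (p107) stood at 0.19 and -0.38 in the authors' deposited tables, JICD1 first. The activator E2f1 stood at 0.52 with JICD1 and -0.034 with NICD1 in the authors' deposited tables. E2f2, also an activator, had the largest G1 ratio with JICD1, 0.80 (1.75-fold higher), with a score of only 0.588, and stood at -0.17 with NICD1 in the authors' deposited tables. E2f7 and E2f8 are the atypical E2Fs, which repress E2F target genes late in the cycle and are themselves E2F targets. They had the lowest NICD1 ratios of all 59 members: E2f7 stood at -0.74 (1.67-fold lower, score 0.734) and E2f8 at -0.69 (1.61-fold lower, score 0.746) in the authors' deposited table. With JICD1 they stood at 0.064 and 0.21 in the authors' deposited table. Of the 10 members that were 1.5-fold or more higher with JICD1 than with NICD1, 5 were G1 genes, namely E2f2, Rb1, E2f8, E2f7 and Ccnd2. Since 19.3% of all genes were higher by that much, no more is read from this count. Of these 5, the Symbol column names only Ccnd2.

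The 6 subunits of the MCM helicase, which unwinds DNA at replication forks, were close to control with JICD1 and all slightly lower with NICD1. Their log2 ratios ran between -0.085 (Mcm7) and 0.10 (Mcm3) with JICD1, with a median of 0.0071, in the authors' deposited table. With NICD1 they ran between -0.39 (Mcm6) and -0.11 (Mcm4), with a median of -0.31, in the authors' deposited table. The lowest of these is a 1.31-fold difference, and its score was 0.675. The factors that load or start the helicase, Cdc6, Cdt1, Mcm10, Gins1 and Gins2, ran between -0.25 and 0.28 with JICD1 and between -0.28 and -0.030 with NICD1 in the authors' deposited tables.

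The primase and clamp loader genes were spread more widely with JICD1. Rfc4 and Rfc3 encode subunits of the same clamp loader, replication factor C. Rfc4 stood at 0.58 (1.49-fold higher, score 0.695) and Rfc3 at -0.53 (1.44-fold lower, score 0.686) with JICD1 in the authors' deposited table, where Rfc3 had the lowest ratio of the 59. With NICD1 they stood at -0.088 and -0.42 in the authors' deposited table. Prim1, the catalytic primase subunit, stood at 0.52 with JICD1 and -0.12 with NICD1 in the authors' deposited tables, and its partner Pola1 at 0.21 and -0.16. Pcna, the sliding clamp, stood at 0.061 and 0.036 in the authors' deposited tables, JICD1 first. Of the other nucleotide enzymes, Tyms (thymidylate synthase) stood at -0.060 with JICD1 and 0.16 with NICD1, and Tk1 (thymidine kinase) at 0.28 and 0.21, in the authors' deposited tables. The checkpoint kinase gene Chek1 stood at -0.25 and -0.42 in the authors' deposited tables, JICD1 first.

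Of the mitotic engine itself, Cdk1 and the B-type cyclins were near control. Cdk1 stood at 0.034 and 0.11, Ccnb1 at 0.054 and -0.13 and Ccnb2 at 0.14 and -0.25 in the authors' deposited tables, each in the order JICD1 and NICD1. Foxm1, a transcription factor of the G2 and mitosis wave, stood at 0.20 with JICD1 and -0.17 with NICD1 in the authors' deposited tables. Mki67, the most used proliferation marker, was one of the 4 mitotic members above 0 with NICD1, at 0.57 (1.49-fold higher, score 0.735) against 0.38 (score 0.657) with JICD1 in the authors' deposited tables. Top2a, the topoisomerase that untangles chromosomes and another common proliferation marker, stood at 0.045 with JICD1 and -0.55 (1.46-fold lower, score 0.733) with NICD1 in the authors' deposited tables. The markers Mki67 and Top2a therefore had NICD1 ratios of opposite sign.

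Mitotic kinases and checkpoint genes had ratios of both signs with JICD1. Aurka stood at 0.41 and Bub1, a spindle checkpoint kinase gene, at -0.46 with JICD1 in the authors' deposited table; with NICD1 they stood at 0.010 and -0.0044 in the authors' deposited table. Plk1 (0.12 and -0.095), Bub1b (0.20 and -0.32) and Ttk (-0.16 and -0.15), given JICD1 first, were also below 1.5-fold in the authors' deposited tables. The chromosomal passenger genes Aurkb, Birc5 and Cdca8, whose products correct faulty spindle attachments, ran between 0.072 and 0.24 with JICD1 and between -0.38 and -0.22 with NICD1 in the authors' deposited tables. Cdc20, the activator of the anaphase-promoting complex, stood at 0.18 and -0.28 in the authors' deposited tables, JICD1 first.

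Of the centromere and kinetochore genes, Cenpe had the largest ratio, 0.66 (1.58-fold higher, score 0.744) with JICD1 and -0.35 (1.27-fold lower, score 0.637) with NICD1 in the authors' deposited tables. The others, Cenpa, Cenpf, Nuf2 and Ndc80, lay below 1.5-fold with both constructs; all 5 had NICD1 ratios below 0, down to that of Cenpe. The mitotic kinesin genes differed: Kif11, which separates spindle poles, stood at 0.57 (score 0.719) and 0.22, Kif20a at -0.24 and -0.10 and Kif23 at -0.031 and -0.13 in the authors' deposited tables, each JICD1 first.

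The promoters of 5 of these genes are shown because E2f7, E2f8 and Top2a were the lowest G1 and mitotic members with NICD1, Mcm6 was the lowest MCM subunit with NICD1, and Rrm2 was the highest member with both constructs. Each line gives the 250 bases before the RefSeq gene start on GRCm38.p6, which is not the mm9 build named for these data. The strand is that of the gene, 5′ to 3′. Capitals mark matches, on either strand, to an E2F motif (TTTCCCGC or TTTCGCGC or TTTGCCGC or TTTGGCGC), to the cell cycle homology region or CHR (TTTGAA or TTCGAA), and to CCAAT. Matches may overlap, as in Mcm6, and a match is a description and not a shown binding site. The E2f7 promoter lies at chr10:110745189-110745438 (plus strand), E2f8 at chr7:48881597-48881846 (minus), Mcm6 at chr1:128359706-128359955 (minus), Top2a at chr11:99024190-99024439 (minus) and Rrm2 at chr12:24708004-24708253 (plus).
E2f7: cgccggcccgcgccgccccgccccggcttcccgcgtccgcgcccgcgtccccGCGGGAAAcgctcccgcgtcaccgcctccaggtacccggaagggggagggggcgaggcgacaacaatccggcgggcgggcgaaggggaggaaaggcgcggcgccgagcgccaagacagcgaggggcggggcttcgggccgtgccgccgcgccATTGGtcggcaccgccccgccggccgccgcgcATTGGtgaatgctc
E2f8: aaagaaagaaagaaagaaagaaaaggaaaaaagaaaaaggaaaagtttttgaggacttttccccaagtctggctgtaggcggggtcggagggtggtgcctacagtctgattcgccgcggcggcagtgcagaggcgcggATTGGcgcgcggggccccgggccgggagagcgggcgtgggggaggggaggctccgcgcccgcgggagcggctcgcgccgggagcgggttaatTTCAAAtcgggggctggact
Mcm6: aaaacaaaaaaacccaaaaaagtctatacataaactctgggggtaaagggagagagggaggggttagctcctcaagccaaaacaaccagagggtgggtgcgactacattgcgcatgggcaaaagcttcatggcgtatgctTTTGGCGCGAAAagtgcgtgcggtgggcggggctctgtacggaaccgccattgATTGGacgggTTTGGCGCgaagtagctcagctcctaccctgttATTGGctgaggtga
Top2a: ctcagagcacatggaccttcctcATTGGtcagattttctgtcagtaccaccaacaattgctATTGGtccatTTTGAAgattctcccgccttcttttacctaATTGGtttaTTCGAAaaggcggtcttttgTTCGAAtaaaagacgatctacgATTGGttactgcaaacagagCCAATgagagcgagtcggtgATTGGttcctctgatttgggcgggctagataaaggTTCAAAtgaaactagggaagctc
Rrm2: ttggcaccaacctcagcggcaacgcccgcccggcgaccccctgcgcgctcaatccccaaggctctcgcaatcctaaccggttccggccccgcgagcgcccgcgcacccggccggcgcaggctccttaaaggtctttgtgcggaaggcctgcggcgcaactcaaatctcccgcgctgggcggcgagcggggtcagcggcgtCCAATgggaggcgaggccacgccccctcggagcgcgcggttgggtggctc

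Counted from the gene start, Mcm6 had 3 E2F matches, at -110 to -103, -106 to -99 and -47 to -40, and 2 CCAAT boxes. Top2a had 4 CHR matches, the nearest at -23 to -18, and 6 CCAAT boxes. E2f7 had an E2F match at -198 to -191 and CCAAT boxes at -46 to -42 and -14 to -10. E2f8 had a CHR match at -20 to -15 and a CCAAT box at -112 to -108. Rrm2 had a CCAAT box at -50 to -46 and no E2F or CHR match in these letters. CCAAT was thus found in each of the 5 promoters, Rrm2 included, and E2F and CHR matches in only some. These promoters were picked by their ratios, so nothing is read from this about the ratios.

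A promoter was found for 48 of the 59 members, 10 G1, 18 replication and 20 mitotic. The share with each motif is given by subset, with no test; the choice of the list did not use sequence. An E2F match was found in 3 of 10 G1 promoters, 6 of 18 replication promoters (33.3%) and 1 of 20 mitotic promoters (5.0%), where 3.14% of the 12255 promoters of genes in both tables and 1.91% of all 27025 promoters had one. A CHR match together with CCAAT was found in 7 of 20 mitotic promoters (35.0%), 3 of 18 replication promoters (16.7%) and 1 of 10 G1 promoters, against 5.07% of genes in both tables and 6.21% of all. Every member promoter with a CHR match also had CCAAT. CHR, with or without CCAAT, was found in 12.9% of genes in both tables and 17.4% of all. The replication (16.7%) and G1 (10.0%) shares lie near those. CCAAT, with or without CHR, was found in 17 of 20 mitotic (85.0%), 12 of 18 replication (66.7%) and 4 of 10 G1 promoters (40.0%), against 36.0% and 34.5%.

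**Figure D4:**
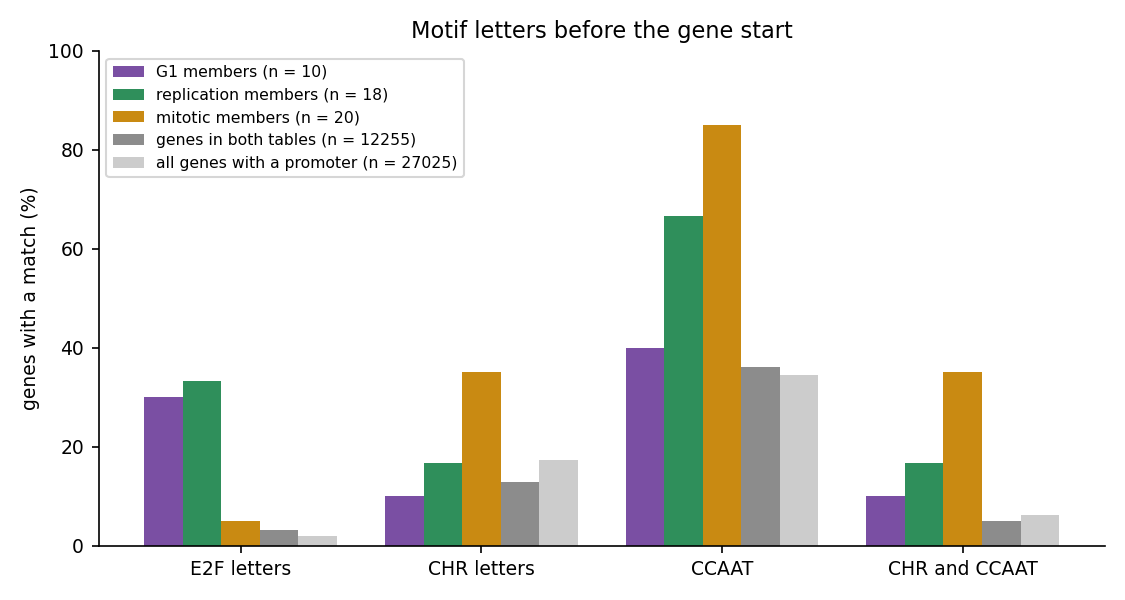
Share of genes, in percent, with a motif match in the 250 bases before the gene start, for the G1 (n = 10), replication (n = 18) and mitotic (n = 20) members with a promoter, for genes in both tables (n = 12255) and for all genes with a promoter (n = 27025). E2F letters are most frequent in replication members (33.3%) and CCAAT in mitotic members (85.0%).

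Further cell cycle genes were taken from a list of 137 that are not members, of which 134 had a ratio in each table. Their medians were 0.055 with JICD1 and -0.21 with NICD1, where those of all genes were 0.045 and -0.016. Over all genes, 54.5% of the JICD1 ratios and 48.5% of the NICD1 ratios were above 0. With NICD1, 60 of 65 further mitotic genes and 41 of 50 further replication genes lay below 0, with medians of -0.25 and -0.24. None of these 115 was called with NICD1, and 3 of 19 further G1 genes were, all Cdk inhibitors and all higher. Over all genes, 1.64% were called higher and 0.97% lower with NICD1. With JICD1 the further mitotic genes had a median of 0.023, with 35 of 65 above 0, and the further replication genes one of 0.092, with 30 of 50 above 0. Where 1.07% of all genes were called higher and 1.74% lower with JICD1, 2 of 134 were called, both higher. Ect2, which is needed for cytokinesis, was one of them, at 1.22 (2.33-fold higher, score 0.828) with JICD1 in the authors' deposited table, and it stood at -0.42 with NICD1 in the authors' deposited table.

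The other call with JICD1 was Cdkn1a, which encodes the Cdk inhibitor p21. It stood at 2.35 (5.09-fold higher, score 0.889) with JICD1 and at 1.57 (2.98-fold higher, score 0.850) with NICD1 in the authors' deposited tables. With NICD1, Cdkn2b (p15) stood at 11.24 (score 0.991) and Cdkn2a at 7.59 (score 0.827) in the authors' deposited table. No fold is given for these, since the control of Cdkn2a, and that of Cdkn2b from its JICD1 ratio, was inferred to lie at a common floor of the tables. Cdkn2a had no ratio in the JICD1 table. Cdkn2a is the locus of Ink4a, and whether its reads lie in the deleted part was not given, so its value does not check the genotype. Beside these called inhibitors, all 59 cell cycle members stayed under 2-fold; whether the inhibitors bear on them was not tested.

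The labels were checked where the tables allowed. Jag1 stood at -1.39 (score 0.759) with JICD1 and 1.36 (score 0.819) with NICD1 in the authors' deposited tables. Notch1 stood at 1.33 (score 0.735) with JICD1 and 1.77 (score 0.815) with NICD1 in the authors' deposited tables, so it was higher in both. Since Jag1 went against its construct, and whether reads of the construct count towards it was not given, JICD1 in this text means the libraries labelled JICD1. Of 13 astrocyte markers 12 had a ratio in each table, 6 above 0 with JICD1 and 5 with NICD1. Gfap stood at -1.36 and -1.52, Slc1a3 at 0.029 and -0.69, Clu at -3.88 and -2.30 and Sox9 at -0.84 and -1.64 in the authors' deposited tables, JICD1 first. Others in the list lay above 0 with both constructs, among them Nfia at 3.77 and 1.86, Slc1a2 at 0.79 and 2.98 and Aldh1a1 at 5.03 and 2.18 in the authors' deposited tables, JICD1 first. These 3 were named after their values were seen, and the control of Aldh1a1, and of Slc1a2 in the NICD1 table, was inferred to lie at the floor. Aqp4 had no ratio. With no levels in the tables, whether the markers are present at a substantial level cannot be read from them. Markers of other cells also had ratios away from 0, though most lists held ratios of both signs. All 4 measured fibroblast and pericyte markers lay below 0 with JICD1 (median -2.98) and 2 of 5 with NICD1 (median 0.083). Microglia markers had medians of -0.61 and 0.80 (9 measured), neuron markers 0.0074 and 2.76 (7), endothelial markers -0.43 and 0.84 (6) and oligodendrocyte markers -0.34 and -0.51 (6), JICD1 first. These medians hide wide ranges: with NICD1 the neuron markers ran between -3.67 and 3.96 and the microglia markers between -1.36 and 3.17. Scores with NICD1 also varied, as for Trem2 (0.157) and Tubb3 (0.931) in the authors' deposited table, named after their values were seen. The part of these markers in the cell cycle ratios was not tested.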

How the data were processed

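RNA of 9 samples was sequenced, 3 per group, grouped by the label of the transfected vector. The submitters' processing notes name Bowtie2, BWA and mm9, without version or role. Per the file headers, the authors deposited 1 log2 ratio over control and 1 score (Probability) per gene. How libraries were counted, scaled and combined was not given in the labels or headers. There is no value per library, so depth is unknown and nothing could be tested. The tables held 0 further value columns.

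Genes were matched by symbol, then by gene ID (32 members by NCBI, 4 by Ensembl ID) with RefSeq and GENCODE tables of GRCm38. Names were found for 18681 of 18971 and 18998 of 19287 genes. Medians, counts and differences of log2 ratios were computed in Python 3.11.15 with pandas 2.3.3 and numpy 2.4.6. The functions were first checked on made-up values and, for medians, on JICD1 ratios shifted by known amounts. The thresholds were a score of 0.8 and an absolute log2 ratio of 1. The further mitotic, replication and G1 lists hold 65, 50 and 22 genes.

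A floor was inferred from 694 genes whose negative ratio was identical in both tables (tolerance 1e-06): a gene within 0.002 of their score curve (0.01 above a log2 of 6) at an absolute log2 ratio of 1 or more was taken to have a group at it. The curve ends at 9.45. No member met this. Promoters (first listed start per gene) come from RefSeq.

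All members could be named, as could further cell cycle genes with a score of 0.8 and 3 Cdk inhibitors. Rbl2 and the further E2f genes were named after their values were seen. None of the other listed Cdk inhibitors had a score of 0.8 or more, and their values are not given. Members, lists and thresholds were chosen with earlier results of these data known. Alternatives were a score of 0.7 or 0.9, 1.5-fold or a log2 of 2, subtracting the median of all genes, the Symbol column alone, leaving out genes at the floor, and means.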

Additional observations from a re-analysis of the deposited data

How the results depend on the processing

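Of 85 recomputed values, 76 were labelled the same. For medians this meant staying within a binomial interval of the median taken from the ordered members, which are not replicates. For counts it meant staying within 1.5 times. Several of these medians still moved by more than 1.5 times. With the Symbol column only, the JICD1 minus NICD1 median was 0.12 for G1, 0.30 for replication and 0.21 for mitotic members, against 0.51, 0.17 and 0.36. As means, G1 with NICD1 was -0.16 against -0.034, and replication and mitotic members with JICD1 0.094 and 0.15 against 0.041 and 0.096. At a score of 0.7, 4 members were called with JICD1 and 6 with NICD1, against 0 at 0.8 and 0 at 0.9. At 1.5-fold the counts were 4 and 4, against 0 at a log2 of 1 and 0 at a log2 of 2. The JICD1 minus NICD1 count at a log2 of 1 was 2; it became 10 at 1.5-fold, 1 after the median of all genes was subtracted and 1 with symbols from the Symbol column only. These 3 alternatives for the difference were chosen after seeing the data. The replication median with JICD1 turned to -0.0048 after the median of all genes was subtracted. The G1 median with NICD1 turned to 0.13 with the Symbol column only, which names 4 of 14 G1 members. Leaving out members at an inferred floor or in only 1 table removed no member, so those values were fixed in advance. So were the counts of 0 at stricter thresholds or with the Symbol column only. All of these are among the 76, which is therefore no measure of robustness. No paired analysis was possible because the deposited ratios already combine the libraries; leaving out a replicate could not be run for the same reason. Depth is unknown, so which small ratios lie within counting error cannot be stated.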
